A study of Mus musculus with 5 samples.

Results

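A set of 9 genes of histone methylation was followed here through the bone marrow (BM) of mice that had received the alkylating drug cyclophosphamide (CTX). They are Ezh2, Ezh1, Eed, Suz12 and Rbbp4, which encode subunits of Polycomb repressive complex 2 (PRC2), with Kdm6b, Ash1l, Kmt2a and Setd2, which encode enzymes acting on related histone marks. They were chosen by symbol, and all 9 were found among the 31053 genes of the count matrices. BALB/c mice of 4 to 8 weeks, of both sexes and with no engineered allele, were left untreated (naive) or given CTX in PBS by intraperitoneal injection at 150 mg/kg. Whole BM was taken from naive mice, on day 2 (D2 CTX) and on day 7 (D7 CTX), freed of red cells by lysis and of dead cells, and pooled from 3 mice for each library. CD11b+Ly6Chi monocytes were sorted from BM of naive and of CTX-treated mice for 1 further library each. The study's methods give day 7 for that CTX library, the labels give no day, and the number of mice behind each sorted library was not given in the sources used here. The whole BM libraries were labelled CD45+, but erythroid-like cells were present in all 3 of them. RNA was counted as unique molecular identifiers (UMIs) at the 3′ end of transcripts.

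PRC2 places methyl groups on lysine 27 of histone H3, a mark of silenced genes that is passed on as chromatin is copied. EZH2 and EZH1 are its alternative catalytic subunits, of which EZH2 is known from dividing and EZH1 from resting cells, while SUZ12 holds the core together, EED reads the mark and RBBP4 binds histones there and in other complexes. KDM6B removes the mark, and its gene is induced in activated myeloid cells. KMT2A methylates lysine 4, and ASH1L and SETD2 methylate lysine 36, marks that go with active genes. In BM, PRC2 is known for its part in early B cell development and in the growth of progenitors.

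The depth of the 5 libraries set how firmly each value could be read. They held 2223 to 8605 barcodes, of which 1891 to 8290 cells passed the filters, and the median kept cell of the 3 whole BM libraries had 3953.5 (naive), 3033.5 (D2 CTX) and 7189.5 (D7 CTX) UMIs. Between 15 and 43 barcodes of a library also occurred in another one and were kept. Each condition was 1 library, so CTX was compared with naive without a test, by the size of the ratio and by intervals that cover counting error only. Cells were called cycling where 1000 UMIs drawn from the cell held at least 5 from genes of the S and G2/M phases, and non-cycling where they held at most 1. By this rule 21.9% (naive), 33.1% (D2 CTX) and 15.4% (D7 CTX) of mature neutrophil-like cells were called cycling. The call is thus a threshold on counts, and its error in each class was not tested. None of the 9 genes is in those phase lists. Levels are UMIs of a gene per 1000000 UMIs of the summed cells (CPM), which were compared between cells for 1 gene and not between genes. Ratios of CTX over naive are given as differences of log2(CPM + 1), which understates those of low genes, and their intervals are of the ratio of CPM itself.

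The start sites of the genes that moved together are shown first, because 4 PRC2 subunit genes were higher and Ezh1 lower in cycling monocyte-like cells. RefSeq promoter entries of build GRCm38.p6, which run from 250 bases before to 50 bases after a transcript start, existed for 7 of the 9 genes. Capitals mark letters of E2F sites (TTTGGCGC, TTTCCCGC, TTTGCCGC or TTTCGCGC), of the cell cycle homology region (TTTGAA) or of CCAAT boxes, read on either strand. The lines run 5′ to 3′ on the strand of the gene, from chr6:47595016-47595140 (minus strand) for Ezh2, chr11:79992881-79993055 (plus) for Suz12, chr4:129335356-129335430 (minus) for Rbbp4, chr7:89981137-89981191 (minus) for Eed and chr11:101226449-101226573 (minus) for Ezh1.
Ezh2: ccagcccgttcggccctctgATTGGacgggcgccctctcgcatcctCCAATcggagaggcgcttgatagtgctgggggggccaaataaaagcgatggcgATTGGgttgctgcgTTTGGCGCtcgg
Suz12: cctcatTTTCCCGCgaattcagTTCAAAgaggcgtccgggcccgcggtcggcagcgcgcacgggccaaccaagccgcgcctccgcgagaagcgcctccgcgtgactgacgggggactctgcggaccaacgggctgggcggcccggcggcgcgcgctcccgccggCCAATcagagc
Rbbp4: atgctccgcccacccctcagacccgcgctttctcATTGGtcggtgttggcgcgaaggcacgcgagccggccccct
Eed: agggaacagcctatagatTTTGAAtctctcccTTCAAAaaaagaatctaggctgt
Ezh1: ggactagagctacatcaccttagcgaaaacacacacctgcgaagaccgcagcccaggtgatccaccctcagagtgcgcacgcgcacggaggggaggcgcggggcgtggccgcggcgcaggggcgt

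E2F letters were in 2 of the 7 entries, those of Ezh2 and Suz12, and in 744 of all 32851 promoter entries (2.26%). The Ezh2 match began 4 bases after the start, and the Suz12 match 219 bases before it. The cell cycle homology letters were in Eed and Suz12, against 17.9% of all entries, and CCAAT letters were in Ezh2, Suz12, Rbbp4 and Eed, against 37.4%. The entries of Ezh1, Kmt2a and Setd2 held none of these letters. Such matches describe the sequence, and their use by a factor was not measured.

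Ezh2 was highest in large pre-B-like and erythroid-like cells, and lowest in neutrophils. In naive BM its level was 653 CPM (95% counting interval 634 to 671) in large pre-B-like cells, the dividing B cell precursors, and 329 CPM (316 to 342) in erythroid-like cells. Small pre-B-like cells, the next stage, of which 23.3% were called cycling and 22.9% non-cycling, had 234 CPM, and B cell-like cells 76.3 CPM (59.0 to 97.1). The third highest level was 254 CPM (225 to 286), in an MHC class II-rich class of 90 cells. Along the myeloid line the levels were 104 CPM (90.1 to 119) in granulocyte and monocyte progenitor (GMP)-like cells, 130 CPM (120 to 141) in monocyte-like and 98.2 CPM (90.5 to 106) in neutrophil precursor-like cells. The GMP-like and precursor-like intervals overlapped, and the monocyte-like level lay above the precursor-like one beyond counting error. Immature neutrophil-like cells had 12 CPM (9.70 to 14.7) and mature ones 11.4 CPM (6.09 to 19.6), which could not be told apart at this depth. Over the 18 classes with enough cells, the highest naive level was 57.0 times the lowest.

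The mature neutrophil level was low enough to be set beside RNA that those cells should lack. Vpreb1, a surrogate light chain gene of pre-B cells, stood in mature neutrophil-like cells at 0.424% of its large pre-B-like level, Mki67 at 1.08% and Ezh2 at 1.75%. At D7 CTX the Ezh2 level in mature neutrophil-like cells was 0.557% of that in large pre-B-like cells, from 8 UMIs in 703 cells. The part of free RNA in these low levels was not tested.

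**Figure D1:**
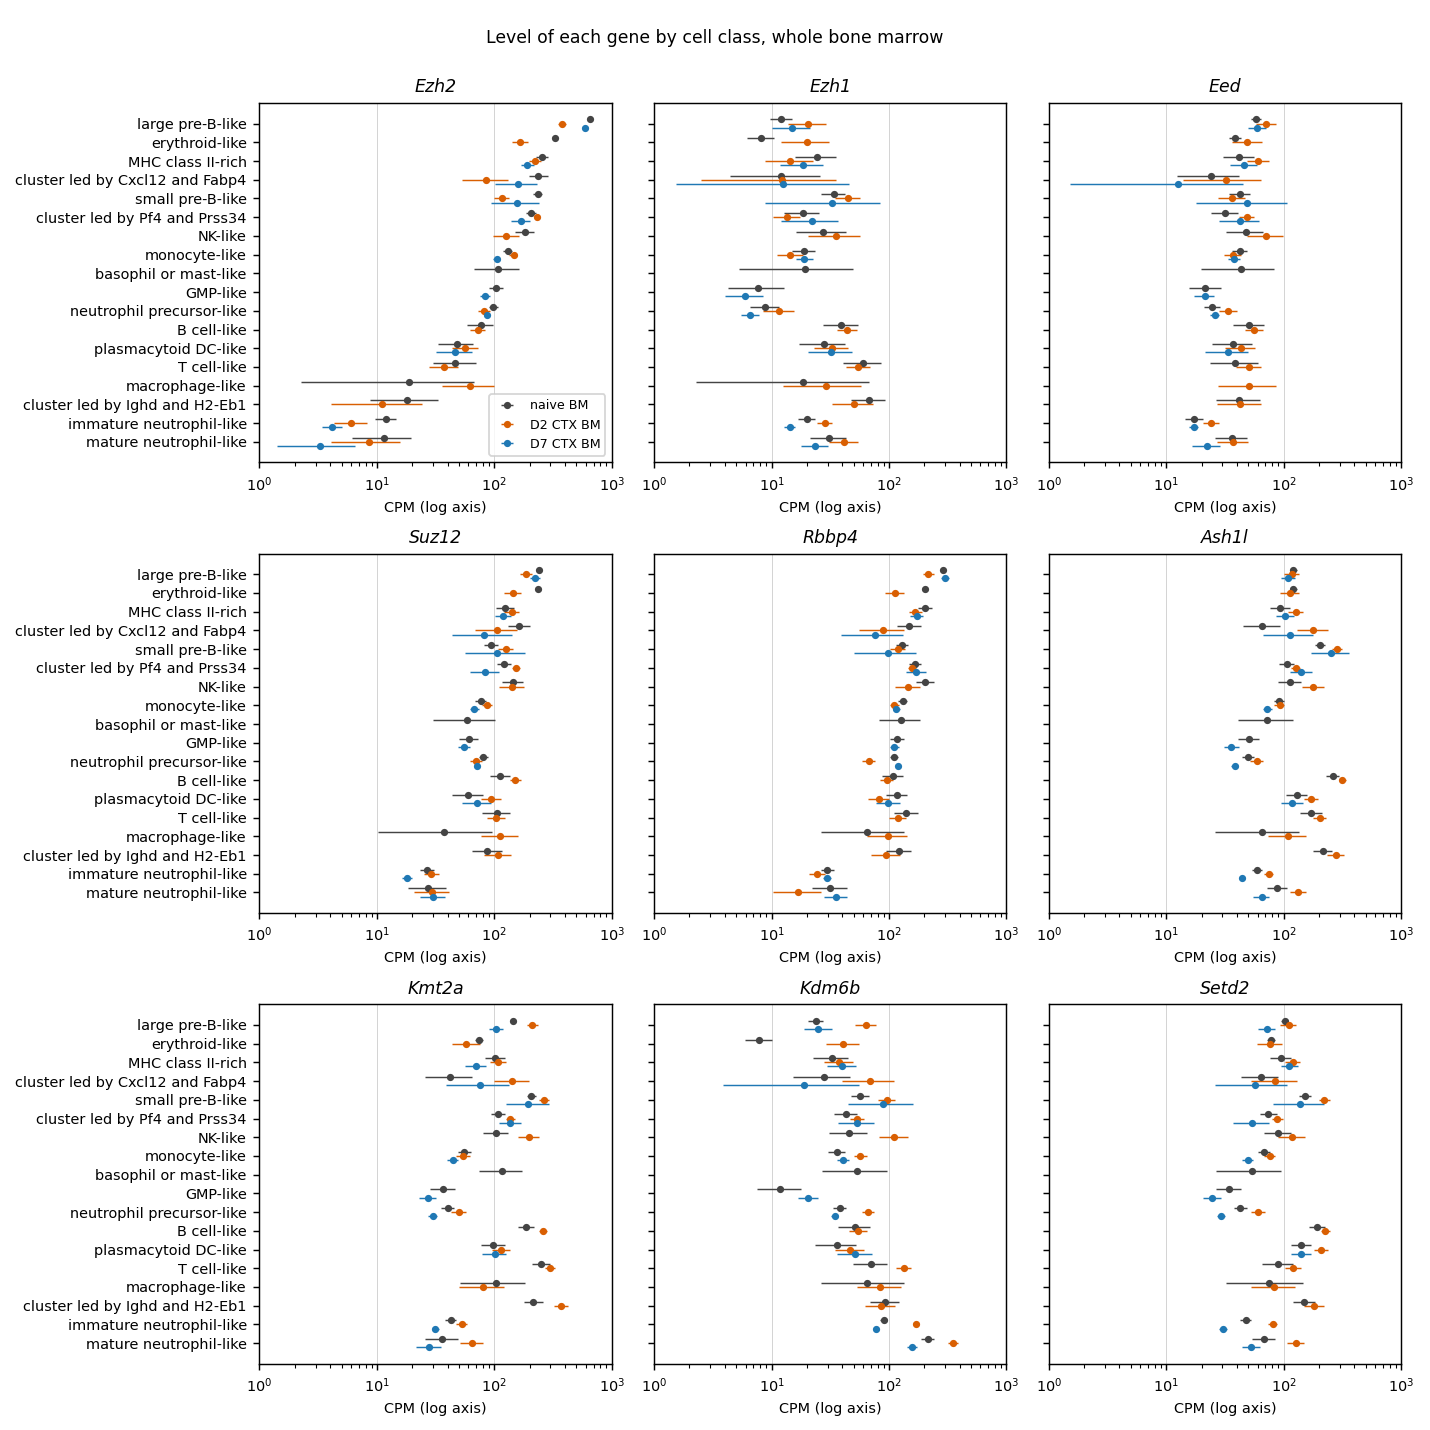
Level (CPM, log axis) of each of the 9 genes in every cell class of whole BM with at least 50 cells in the library, for naive (grey), D2 CTX (orange) and D7 CTX (blue) BM; points are sums over the cells of a class and bars 95% counting intervals, and a level of 0 (Eed in naive macrophage-like cells) is not drawn. Ezh2, Suz12 and Rbbp4 are highest in large pre-B-like cells and Kdm6b in mature neutrophil-like cells in all 3 libraries.

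Suz12 and Rbbp4 had the same classes at the ends of their order in naive BM, over a narrower range. Suz12 stood at 239 CPM in large pre-B-like and 26.6 CPM in immature neutrophil-like cells, an 8.98-fold range, and Rbbp4 at 287 and 29.9 CPM, a 9.61-fold range. Eed ran over a narrower range where it was detected, from 17.3 CPM in immature neutrophil-like to 58.4 CPM in large pre-B-like cells. No Eed UMI was found in the 67 macrophage-like cells of naive BM, which allowed a level of up to 34.4 CPM by the exact interval.

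Ezh1 and Kdm6b had other orders. Ezh1 was highest in a cluster led by Ighd and H2-Eb1 (66.9 CPM, 47.1 to 92.3) and in T cell-like cells (60.2 CPM, 40.9 to 85.5), which did not differ beyond counting error. It was lowest in GMP-like (7.68 CPM), erythroid-like (8.10 CPM) and neutrophil precursor-like cells (8.81 CPM), and higher again in mature neutrophil-like cells (30.8 CPM, 21.5 to 42.8). Kdm6b was higher at each step along the neutrophil classes of naive BM, from 11.8 CPM in GMP-like cells to 38.1 CPM in precursor-like, 90.1 CPM in immature and 215 CPM in mature neutrophil-like cells, with no overlap of the 95% counting intervals. Its lowest naive level was 7.84 CPM, in erythroid-like cells, where Ezh2 was second highest.

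The ratio of Ezh2 to Ezh1 UMIs set the alternative catalytic subunits against each other within a class. In naive BM it was 54.3 (95% interval 44.0 to 67.8) in large pre-B-like cells and 40.6 in erythroid-like cells. It was 13.5 in GMP-like, 11.2 in neutrophil precursor-like and 6.88 (5.46 to 8.77) in monocyte-like cells. The lowest ratios were those of T cell-like cells (0.774), immature (0.601) and mature neutrophil-like cells (0.371) and the cluster led by Ighd and H2-Eb1 (0.270). Because 3′ counting can differ in yield between the 2 genes, only the differences of this ratio between classes can be read.

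Ash1l, Kmt2a and Setd2 varied less than Ezh2 and Kdm6b, and each was highest in a lymphoid class. In naive BM, Ash1l ran from 49.5 CPM in neutrophil precursor-like to 261 CPM in B cell-like cells, Kmt2a from 36.1 CPM in mature neutrophil-like to 249 CPM in T cell-like cells, and Setd2 from 34.3 CPM in GMP-like to 193 CPM in B cell-like cells. Over 45 sums of a class and a library in whole BM, the levels of Ash1l and Setd2 correlated at r = 0.895 and those of Ash1l and Kmt2a at 0.888 (Pearson, log2 of CPM + 1, a description over sums that share their libraries and depth). Ezh2 correlated at 0.869 with Rbbp4, 0.832 with Suz12, −0.366 with Ezh1 and −0.671 with Kdm6b.

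The genes with the pattern most like Ezh2, among 6012 genes and over the same 45 sums of 18 classes, were Hmgb1 (r = 0.944), Cbx3 (0.922), Anp32e (0.918), Sae1 (0.914) and Srsf7 (0.911). Anp32e is itself in the G2/M list. Those most like Ezh1 were Clk1 (0.919), Ddx5 (0.890) and Akap13 (0.890), and those most like Kdm6b were Cmtm6 (0.868), Ndel1 (0.867) and Nfkbiz (0.860).

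Within a class, cycling and non-cycling cells of the same library could be compared with the library as a block, so that libraries were the replicates. In monocyte-like cells, Ezh2 was 195 CPM in cycling and 28.6 CPM in non-cycling cells of naive BM, 168 and 20.9 CPM at D2 CTX, and 161 and 19.0 CPM at D7 CTX. The sorted libraries gave 189 and 28.3 CPM (naive) and 202 and 30.9 CPM (CTX). There, monocyte-like cells were the sorted clusters that fitted no other marker list, and the separate NeuMo-like class held only 3 naive and 29 CTX cells. Every cycling value lay above every non-cycling value, and Ezh2 was 6.88-fold higher in cycling cells (log2 2.78, SE 0.11, adjusted p = 4.81e-10, edgeR's quasi-likelihood test with Benjamini-Hochberg adjustment over 9394 genes, n = 5 libraries). In this contrast 23.7% of all genes tested were higher and 23.9% lower in cycling cells, and 13.2% had every cycling sum above every non-cycling sum. Of the 9 genes, all tested, 4 were higher, 3 were lower and 2 did not pass.

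Suz12 and Rbbp4 rose with Ezh2. Suz12 was 87.7 to 110 CPM in cycling and 29.2 to 45.2 CPM in non-cycling cells over the 5 libraries, without overlap (log2 1.48, SE 0.11, adjusted p = 1.70e-07). Rbbp4 was 120 to 174 CPM against 72.7 to 93.5 CPM, also without overlap (log2 1.01, SE 0.10, adjusted p = 2.61e-06). Eed was higher in cycling cells in 5 of 5 libraries by a smaller amount, 37.1 to 63.6 against 20.9 to 50 CPM (log2 0.35, SE 0.10, adjusted p = 0.0118), and its adjusted p was 0.111 without the naive sorted library. These p-values, here and for the other lineages, come from the same edgeR test.

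Ezh1 and Kdm6b fell. Ezh1 was 10.5 to 16.2 CPM in cycling and 17.5 to 38.3 CPM in non-cycling cells, with no overlap (log2 −0.91, SE 0.16, adjusted p = 4.01e-04), where 9.29% of all genes had every cycling sum below every non-cycling sum. Kdm6b was 22.5, 37.3 and 33.4 CPM in cycling cells of naive, D2 CTX and D7 CTX BM, against 51.5, 153 and 47.1 CPM in non-cycling ones, and 52.1 and 33.0 CPM against 118 and 75.2 CPM in the naive and CTX sorted libraries. It was lower in cycling cells within all 5 libraries, although the ranges overlapped across libraries (log2 −1.2, SE 0.14, adjusted p = 1.21e-05). Ash1l was lower by 0.27 on the log2 scale (SE 0.09, adjusted p = 0.0182), and the call was lost in 6 of 16 alternatives (adjusted p up to 0.154), namely without the naive BM, the naive sorted or the CTX sorted library, with DESeq2, without a filter on low counts and with a cycling threshold of 3 UMIs. Kmt2a (log2 0.05, SE 0.10, adjusted p = 0.707) and Setd2 (log2 −0.06, SE 0.10, adjusted p = 0.756) did not pass.

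The Ezh2 to Ezh1 ratio moved with the cycling state inside the class. In monocyte-like cells it was 12.1 in cycling and 1.0 (95% interval 0.456 to 2.20) in non-cycling cells of naive BM, 15.1 and 0.545 (0.166 to 1.61) at D2 CTX, and 10.6 and 0.792 (0.410 to 1.51) at D7 CTX. The sorted libraries gave 17.6 and 1.62 (1.17 to 2.27) for naive and 19.1 and 1.44 (1.06 to 1.96) for CTX. The cycling ratio was above the non-cycling one in all 5 libraries. In B cell-like cells of naive BM it was 1.94.

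**Figure D2:**
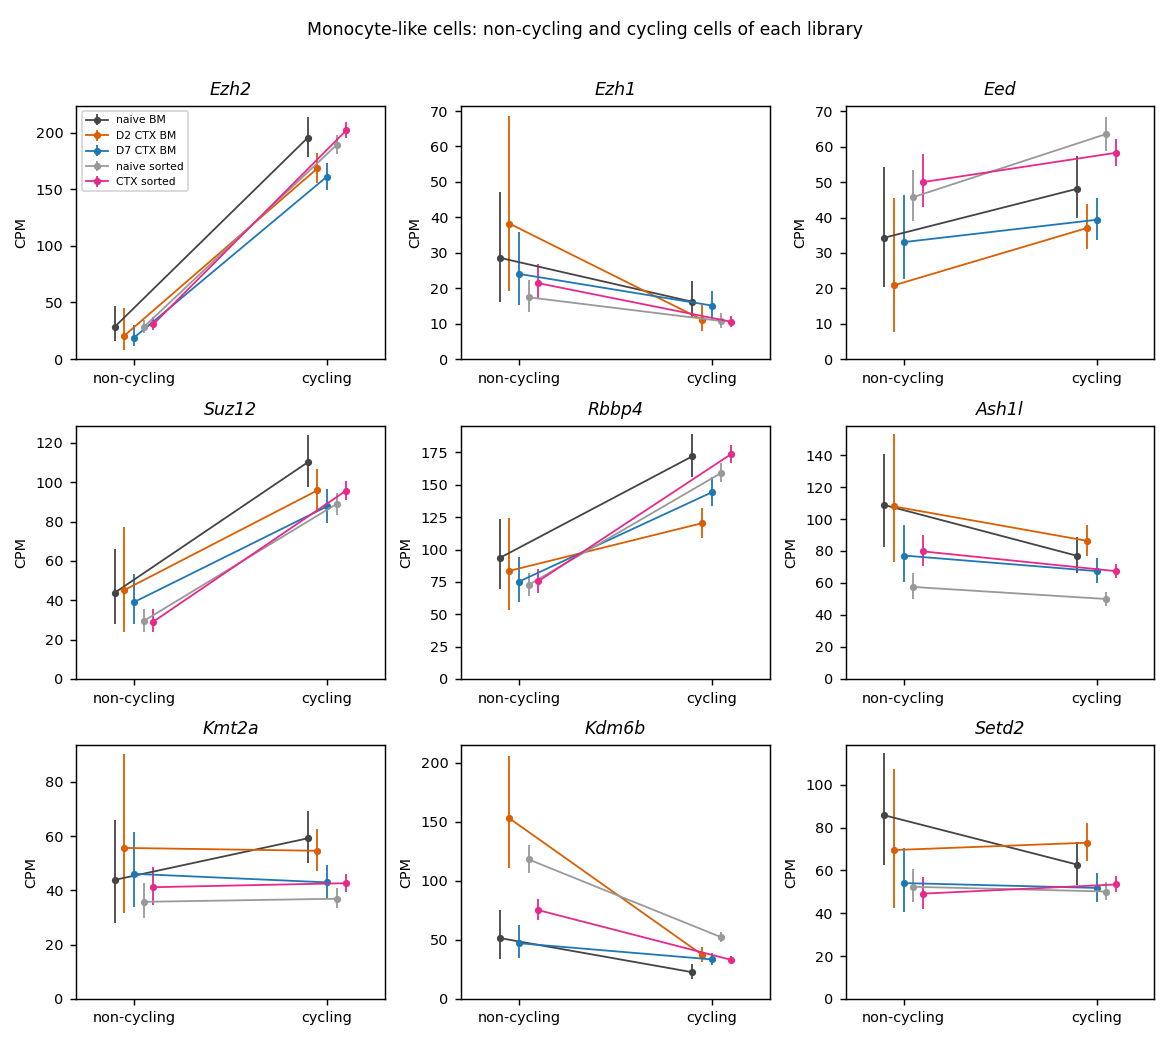
Level (CPM, linear axis from 0) of each of the 9 genes in non-cycling and cycling monocyte-like cells, with 1 line for each of the 5 libraries and bars for the 95% counting interval. The lines of Ezh2, Suz12, Rbbp4 and Eed go up and those of Ezh1, Ash1l and Kdm6b go down in all 5 libraries.

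Cycling state moved together with the stage of the cells. In the monocyte-like contrast all 7 tested of 8 GMP markers were higher in cycling cells (median log2 3.31). The 4 markers of neutrophil-like monocytes (NeuMo) were among these 7. All 5 markers of dendritic-like monocytes (DCMo), 5 of 8 monocyte markers and all 7 mature neutrophil markers were lower. The part of these stages in the differences of the 9 genes was not tested.

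The same contrast was made in neutrophil precursor-like and immature neutrophil-like cells together, and in B lineage cells (large pre-B-like, small pre-B-like and B cell-like), with the 3 whole BM libraries. Joining precursor-like and immature cells was decided after seeing that precursor-like cells alone held 1, 2 and 7 non-cycling cells. In the neutrophil contrast Ezh2 was 61.8 to 85.2 CPM in cycling and 4.43 to 11.2 CPM in non-cycling cells (log2 3.48, SE 0.21, adjusted p = 2.29e-07, 11.2-fold), and in the B lineage 274 to 629 against 95.2 to 189 CPM (log2 1.89, SE 0.23, adjusted p = 1.68e-04, 3.69-fold). Neither pair of ranges overlapped, which also held for 34.2% and 21.2% of all genes in that direction with 3 libraries. Over all genes, 29.2% were higher and 27.7% lower in cycling cells of the neutrophil contrast, and 17.1% and 12.6% in the B lineage.

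Suz12 and Rbbp4 were higher in cycling cells in both lineages. Suz12 rose by 1.48 (SE 0.16, adjusted p = 1.86e-05) and Rbbp4 by 1.52 (SE 0.15, adjusted p = 9.31e-06) on the log2 scale in the neutrophil contrast, and by 1.06 (SE 0.26, adjusted p = 0.00917) and 1.40 (SE 0.23, adjusted p = 0.00104) in the B lineage. Without the naive BM library the adjusted p of Suz12 in the B lineage was 0.0752. Eed was higher in cycling cells in 3 of 3 libraries of each lineage without passing (log2 0.19, adjusted p = 0.255, and log2 0.66, adjusted p = 0.0606).

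Ezh1 fell in both lineages, by 1.11 on the log2 scale in the neutrophil contrast (SE 0.16, adjusted p = 1.40e-04) and by 1.31 in the B lineage (SE 0.31, adjusted p = 0.00784), where the call was lost without the naive BM library (adjusted p = 0.372). With cycling cells called by the share of all UMIs, without thinning, Ezh1 did not pass in either lineage (adjusted p = 0.159 in the neutrophil contrast). Kdm6b fell by 1.06 in the neutrophil contrast (SE 0.11, adjusted p = 1.35e-05). In the B lineage Kdm6b stood at log2 −0.84 (SE 0.31, adjusted p = 0.0614), lower in cycling cells in 3 of 3 libraries, and passed in 5 of 15 alternatives, the fit without the D2 CTX library among them, while with cycling by the share of all UMIs it stood at log2 0.09. Ash1l was lower in the neutrophil contrast (log2 −0.38, SE 0.12, adjusted p = 0.0164) and in the B lineage (log2 −0.66, SE 0.18, adjusted p = 0.0164), as were Kmt2a (log2 −0.56, SE 0.18, adjusted p = 0.0344) and Setd2 (log2 −0.57, SE 0.18, adjusted p = 0.0352) in the B lineage. Of 15 alternatives each, the B lineage calls were lost in 6 for Ash1l, 9 for Kmt2a and 7 for Setd2, DESeq2 and fits without the naive BM or the D2 CTX library among them. The neutrophil call of Ash1l was lost in 4, namely without naive BM, with DESeq2, without a filter on low counts and with cycling by the share of all UMIs (adjusted p up to 0.228). Thus of the 9 genes, 3 were higher and 3 lower in the neutrophil contrast, and 3 higher and 4 lower in the B lineage.

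**Figure D3:**
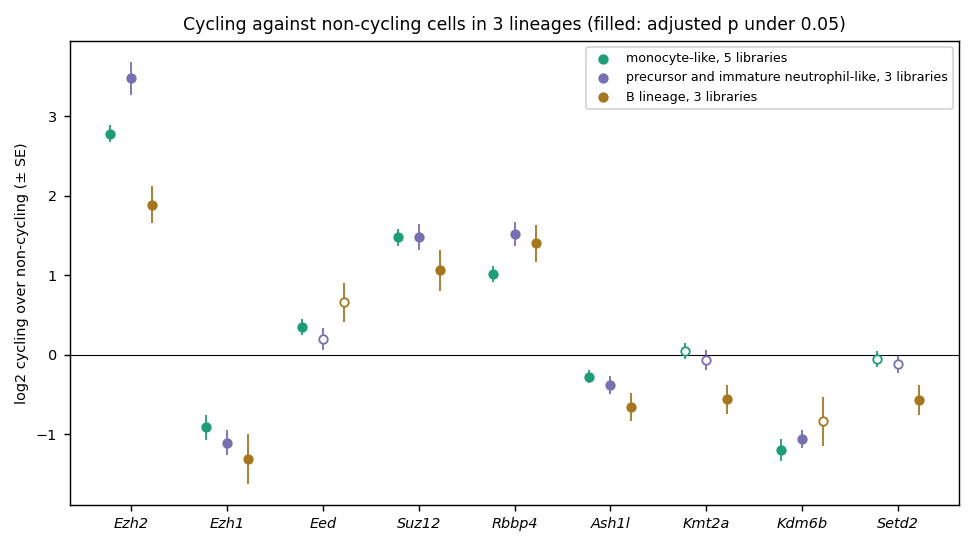
Difference between cycling and non-cycling cells (log2, vertical axis) of each of the 9 genes in monocyte-like cells (green, 5 libraries), neutrophil precursor-like and immature neutrophil-like cells (purple, 3 libraries) and B lineage cells (brown, 3 libraries); bars are ± 1 SE, and filled points passed an adjusted p of 0.05 in edgeR's quasi-likelihood test. Ezh2, Suz12 and Rbbp4 lie above 0 and Ezh1 and Kdm6b below 0 in all 3 contrasts, and the open points did not pass.

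These contrasts also mixed stages. In the neutrophil contrast, 7 of 9 precursor markers were higher and all 7 mature neutrophil markers lower in cycling cells, and in naive BM 503 of the 735 cycling cells were precursor-like. Within immature neutrophil-like cells alone, Ezh2 was 6.43 CPM in cycling and 10.3 CPM in non-cycling cells of naive BM, from few UMIs. It was 7.64 and 0 CPM at D2 CTX and 3.31 and 4.56 CPM at D7 CTX. Kdm6b there was 93.3 and 90.5 CPM in naive BM, 183 and 158 CPM at D2 CTX and 74.1 and 77.7 CPM at D7 CTX. The part of class make-up in the joined differences was not tested. In the B lineage, all 7 markers of immature or mature B cells and 5 of 7 small pre-B markers were lower in cycling cells, and all 7 immature neutrophil markers were lower too (median log2 −1.59). Ezh2 was 228 CPM in cycling and 222 CPM in non-cycling small pre-B-like cells of naive BM, and 132 and 118 CPM at D2 CTX. In B cell-like cells it was 92.0 and 81.4 CPM in naive BM and 79.4 and 65.9 CPM at D2 CTX. Of large pre-B-like cells in naive BM, 85.0% were called cycling. The D7 CTX library gave 25 non-cycling B lineage cells. With precursor-like cells alone, which other clusterings left with 2 or 3 libraries, Ezh2 differed by log2 3.24 to 3.48 and Kdm6b by −0.83 to −1.01. Ash1l, called in the joined contrast, passed in none of these 5 clusterings (log2 −0.07 to −0.16, adjusted p = 0.385 to 0.761), and Ezh1 passed in 4 and stood at an adjusted p of 0.0583 under the stricter cell filter.

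The size of the Ezh2 difference varied between these contrasts. The neutrophil and B lineage contrasts each pooled classes of unlike Ezh2 level, and the part of this pooling was not tested. In 1 fit over the 3 whole BM libraries and 8504 genes, made after the separate contrasts had been seen, the difference was larger by log2 1.58 in the neutrophil contrast than in the B lineage (SE 0.33, adjusted p = 0.00521, edgeR's quasi-likelihood test with Benjamini-Hochberg adjustment). The monocyte-like difference exceeded that of the B lineage by 1.16 (adjusted p = 0.0906) and lay 0.42 on the log2 scale under that of the neutrophil contrast (adjusted p = 0.570). None of the other 8 genes differed between lineages at an adjusted p of 0.05 in this fit.

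Other regulators of histone methylation and Polycomb, 64 genes in 7 lists, placed the 9 genes in their families. In monocyte-like cells 12 of the 61 tested were higher and 18 lower in cycling cells (median log2 −0.07, against −0.02 for all genes), in the neutrophil contrast 18 and 19 of 58, and in the B lineage 10 and 12 of 60. The demethylases, the family of Kdm6b, were lower in 9 of 17 with none higher in monocyte-like cells, lower in 11 and higher in 2 of 16 in the neutrophil contrast, and lower in 7 of 17 with none higher in the B lineage. Beside these, 23.9%, 27.7% and 12.6% of all genes tested were lower and 23.7%, 29.2% and 17.1% higher in the 3 contrasts, in that order. The PRC2 accessory subunits were split, with 3 higher and 2 lower of 7 in monocyte-like cells.

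Several regulators differed in all 3 contrasts. Suv39h2, which methylates lysine 9 of H3, differed by log2 3.79 in monocyte-like cells, 3.67 in the neutrophil contrast and 2.59 in the B lineage, Suv39h1 by 2.42, 3.32 and 2.03, and Nsd2, which methylates lysine 36, by 2.91, 2.75 and 2.24. The filter on low counts could be met by the cycling sums alone. Non-cycling levels of Suv39h2 were 0 to 0.86 CPM in monocyte-like cells and 0 to 1.77 CPM in the neutrophil contrast. Folds of genes with such low levels are therefore loosely set. The PRC2 accessory gene Phf19 was higher in cycling monocyte-like cells (log2 3.33, from 4.90 to 9.19 CPM against 0 to 1.14 CPM), and Rbbp7, the relative of Rbbp4, in the neutrophil contrast (2.53) and the B lineage (2.06). The demethylase genes Kdm5b (log2 −2.33, −1.52 and −1.80) and Kdm7a (−1.26, −1.29 and −1.51) were lower in all 3 contrasts. Phf1 was lower in monocyte-like cells (−1.09) and the neutrophil contrast (−1.54), Cbx7 in monocyte-like cells (−1.25), Kdm4b in the neutrophil contrast (−1.36), and Kdm4a (−1.30) and the PRC2 cofactor gene Jarid2 (−1.16) in the B lineage. Cbx7 stood at 0.84 to 3.16 CPM in cycling and 0 to 9.02 CPM in non-cycling cells. Kdm4b stood at 0.63 to 2.12 and 0.89 to 3.87 CPM, and the ranges overlapped for both genes. All differences in this paragraph passed an adjusted p of 0.05 in edgeR's test. Suv39h2 and Phf19 could pass the filter through cycling cells alone, so their calls are given as a description only.

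After CTX, the summed level of Ezh2 in whole BM was lower and that of Kdm6b higher at D2. Over all cells Ezh2 was 224 CPM in naive, 109 CPM in D2 CTX and 74.6 CPM in D7 CTX BM, and Kdm6b 44.8, 92.9 and 54.7 CPM. In such sums, fewer cells of a type and less RNA per cell cannot be told apart. The D2 and D7 ratios share the naive library, and the median log2 ratio of all genes was itself 0.20 at D2 and −0.57 at D7. Relative to it, Ezh2 was lower by 1.23 at D2 and by 1.0 at D7 on the log2 scale (counted directly, −1.02 and −1.57), while 7.12% of genes were at least 1.5-fold lower at D2 and 49.0% at D7. At D2 21.6% of genes were, like Kdm6b, at least 1.5-fold higher.

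The classes that held Ezh2 RNA changed with CTX. Large pre-B-like cells were 10.2% of cells and gave 46.4% of Ezh2 UMIs in naive BM, 2.82% and 15.4% at D2, and 1.97% and 24.1% at D7. Erythroid-like cells gave 24.0%, 4.28% and 2.31%, while the share of neutrophil precursor-like cells was 5.74%, 8.53% and 35.9%, and that of monocyte-like cells 5.54%, 17.0% and 15.8%. When the class levels of each CTX library were weighted by the naive share of each class, an alternative added after seeing the data, Ezh2 was 144 CPM at D2 (log2 −0.63 against naive) and 189 CPM at D7 (−0.24). For Kdm6b the same weighting gave 85.5 CPM at D2 (0.92) and 44.8 CPM at D7 (0.00). No minimum of cells was set for a class in this weighting. At D7 it used 3 B cell-like cells, 4 cells of the cluster led by Ighd and H2-Eb1, and erythroid-like clusters of 14 and 4 cells. The weighted D7 levels are therefore loosely set.

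Class by class at D2, Kdm6b was higher in 14 of the 15 classes with enough UMIs, and at least 1.5-fold higher in 10 of them (median log2 0.73), while 19.4% of all pairs of a gene and a class were. The median log2 ratio of all genes was itself above 0 in every class at D2, from 0.04 to 0.40, so most genes were higher there. It was 352 CPM against 215 CPM in naive mature neutrophil-like cells (log2 0.71, 95% counting interval 0.48 to 0.95), 171 against 90.1 CPM in immature ones (0.91, 0.78 to 1.06) and 66.4 against 38.1 CPM in precursor-like cells (0.79, 0.54 to 1.06). Large pre-B-like cells had 63.9 against 23.8 CPM (1.39, 1.05 to 1.79) and erythroid-like cells 40.8 against 7.84 CPM (2.24, 1.76 to 2.99, from 74 cells at D2). In these 5 classes 36.8%, 21.0%, 23.9%, 26.3% and 23.9% of all genes, in that order, were also at least 1.5-fold higher at D2. At D7 Kdm6b was at least 1.5-fold higher in 2 of 11 classes, GMP-like (0.76, 0.15 to 1.53) and small pre-B-like cells (0.64, −0.39 to 1.54), while 5.80% of pairs were.

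Mature neutrophil RNA moved in the same direction in several of these classes. The summed level of 7 mature neutrophil markers was 133 CPM in naive and 347 CPM in D2 CTX large pre-B-like cells, 90.2 and 535 CPM in erythroid-like cells, and 12365 and 16985 CPM in the mature neutrophil-like cells themselves. It was lower at D2 in monocyte-like cells (1833 and 1198 CPM). The part of this RNA in the Kdm6b differences was not tested.

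Ezh2 was at least 1.5-fold lower at D2 in 5 of 14 classes and higher in none, while 8.98% of all pairs of a gene and a class were lower by that much. They were large pre-B-like (377 against 653 CPM, log2 −0.79, −0.92 to −0.67), small pre-B-like (116 against 234 CPM, −1.0, −1.26 to −0.76), erythroid-like (166 against 329 CPM, −0.98, −1.23 to −0.75) and immature neutrophil-like cells (6.05 against 12 CPM, −0.88, −1.56 to −0.44), and a cluster led by Cxcl12 and Fabp4. Among all genes, 11.3%, 9.52%, 17.5%, 10.9% and 24.8% were so much lower in these 5 classes. Cycling cells were 85.0% of large pre-B-like cells in naive and 44.5% in D2 CTX BM, and 93.1% and 39.1% of erythroid-like cells. Within cycling cells the Ezh2 ratio was −0.82 (−0.97 to −0.68) and −0.78 (−1.03 to −0.55, from 25 cells at D2). The large pre-B-like class joined clusters of 567 and 160 cells in naive BM, and of 52 and 121 cells at D2. The part of this mix was not tested. Other classes showed smaller Ezh2 differences at D2, such as log2 0.24 (−0.08 to 0.57) in GMP-like and −0.26 (−0.46 to −0.06) in neutrophil precursor-like cells. MHC class II-rich cells had −0.19 (−0.43 to 0.05), and their cycling cells −0.53 (−0.79 to −0.28). At D7 Ezh2 was at least 1.5-fold lower in 3 of 11 classes, as were 10.6% of pairs. Large pre-B-like cells had 590 CPM (−0.15, −0.24 to −0.05). Immature neutrophil-like cells stood at 4.15 CPM (−1.33, −1.94 to −1.11, in a class where 10.4% of genes were at least 1.5-fold lower). Their low Ezh2 levels rested on 95 (naive), 39 (D2) and 105 (D7) UMIs. The Ezh2 level of the whole library fell as well, from 224 CPM (naive) to 109 (D2) and 74.6 CPM (D7). The part of free RNA in the immature neutrophil-like differences was not tested.

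Of the other 7 genes, Rbbp4 was lower at D2 in 16 of 16 classes and past 1.5-fold in 4, and Setd2 was higher in 15 of 16 and past 1.5-fold in 2. Kmt2a was higher in 13 of 17 classes (4 past 1.5-fold), Ash1l in 14 of 17 (3 past), Eed in 12 of 14 (1 past), Ezh1 in 8 of 12 (2 past) and Suz12 in 10 of 16 (1 past, with 2 past it in the other direction). Of all pairs of a gene and a class, 19.4% were higher and 8.98% lower by 1.5-fold. Because the median ratio of all genes lay above 0 in every class at D2, higher was the more common direction. The 4 Rbbp4 classes lower by that much were mature neutrophil-like (17.0 against 31.7 CPM, log2 −0.86, −1.77 to −0.07), erythroid-like (112 against 201 CPM, −0.84, −1.14 to −0.56) and neutrophil precursor-like cells (67.4 against 110 CPM, −0.69, −0.91 to −0.49) and the cluster led by Cxcl12 and Fabp4 (89.2 against 149 CPM, −0.74).

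**Figure D4:**
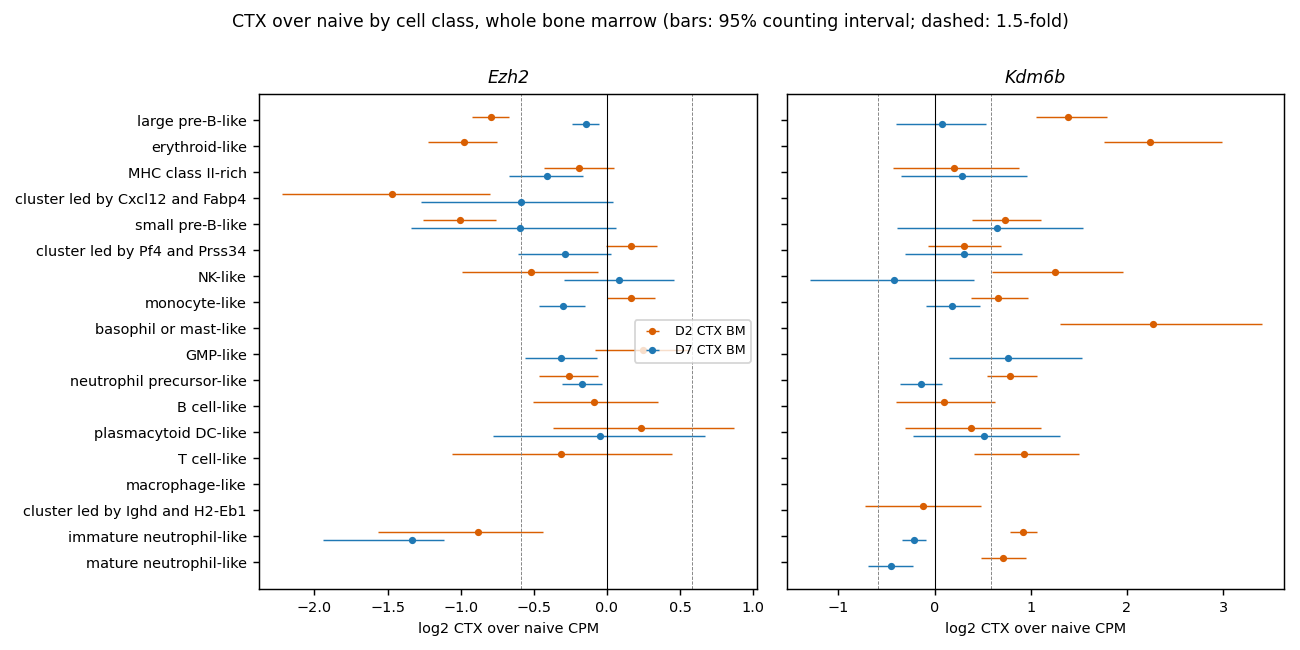
Log2 ratio of D2 CTX (orange) and D7 CTX (blue) over naive CPM for Ezh2 (left) and Kdm6b (right) in each class of whole BM with enough UMIs; bars are 95% counting intervals, and dashed lines mark 1.5-fold. The D2 points of Kdm6b lie right of 0 in 14 of 15 classes, and those of Ezh2 lie past 1.5-fold to the left in 5 of 14.

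In monocyte-like cells, the class the study turned on, the PRC2 subunits stayed within 1.5-fold of naive at both times. Ezh2 was 130 CPM in naive, 146 CPM in D2 CTX (log2 0.16, 0.00 to 0.33) and 105 CPM in D7 CTX cells (−0.30, −0.46 to −0.15). Within cycling cells it was lower at both times (−0.21, −0.39 to −0.04, and −0.28, −0.45 to −0.11), and cycling cells made up 41.6%, 50.6% and 46.9% of the class in naive, D2 CTX and D7 CTX BM. Kdm6b was the only one of the 9 genes past 1.5-fold at D2, at 57.0 against 35.8 CPM (0.66, 0.38 to 0.97), where 18.2% of all genes were. It was higher at D2 in cycling (37.3 against 22.5 CPM, 0.71, 0.27 to 1.2) and in non-cycling cells (153 against 51.5 CPM, 1.55, 0.85 to 2.32, from 50 and 92 cells), as were 17.3% and 17.8% of genes. With libraries clustered without integration the D2 ratio of Kdm6b in this class was log2 1.27 and that of Ezh2 −0.29. At D7, over all cells of the class, none of the 9 genes was past 1.5-fold, where 2.31% of all genes were higher and 3.67% lower by that much, and the ratio farthest from 0 was that of Setd2 (log2 −0.47). Within non-cycling cells at D7, Setd2 was past 1.5-fold (54.1 against 85.8 CPM, −0.66, −1.26 to −0.06), as the only one of 7 genes with enough UMIs, and 8.90% of all genes were lower by that much. Within cycling cells at D7 none of the 9 genes was past 1.5-fold, and Kdm6b stood just under it (33.4 against 22.5 CPM, 0.55, 0.12 to 1.04).

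Of the other regulators in monocyte-like cells, 11 of 55 were at least 1.5-fold higher and 1 lower at D2, against 18.2% and 9.67% of all genes. The largest ratios were those of the PRC2 accessory gene Epop (9.89 against 2.28 CPM, log2 1.73, 1.10 to 3.28), of Bmi1 of Polycomb repressive complex 1 (PRC1; 12.9 against 3.64 CPM, 1.58, 1.0 to 2.72) and of Suv39h2 (12 against 4.55 CPM, 1.22, 0.62 to 2.22). The PRC1 gene Cbx8 was lower (4.37 against 10.9 CPM, −1.15, −2.17 to −0.53). At D7 none of 55 was past 1.5-fold.

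In the sorted monocytes, Kdm6b was lower after CTX and the PRC2 subunits were little different. Kdm6b was 81.9 CPM in naive and 46.2 CPM in CTX cells (log2 −0.81, −0.93 to −0.72), in a comparison where 2.77% of 10673 genes were at least 1.5-fold lower. It was lower in cycling cells (54.3 and 33.8 CPM, −0.67, −0.85 to −0.52) and in non-cycling cells (120 and 73.2 CPM, −0.71, −0.93 to −0.50), where 1.98% and 3.43% of genes were lower by 1.5-fold. Ezh2 was 106 and 124 CPM (0.22, 0.14 to 0.29), with 174 and 184 CPM in cycling cells (0.08, 0.00 to 0.16) and 27.9 and 30.1 CPM in non-cycling cells (0.10, −0.28 to 0.50). Cycling cells were 40.1% of naive and 48.0% of CTX cells, and with the CTX levels weighted to the naive cycling share the Ezh2 ratio was log2 0.10 and that of Kdm6b −0.75. Ash1l was higher by log2 0.32 (0.22 to 0.43), the other 6 genes lay within 0.22 of 0, and none of 62 other regulators was past 1.5-fold in either direction (1.35% of genes were higher).

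**Figure D5:**
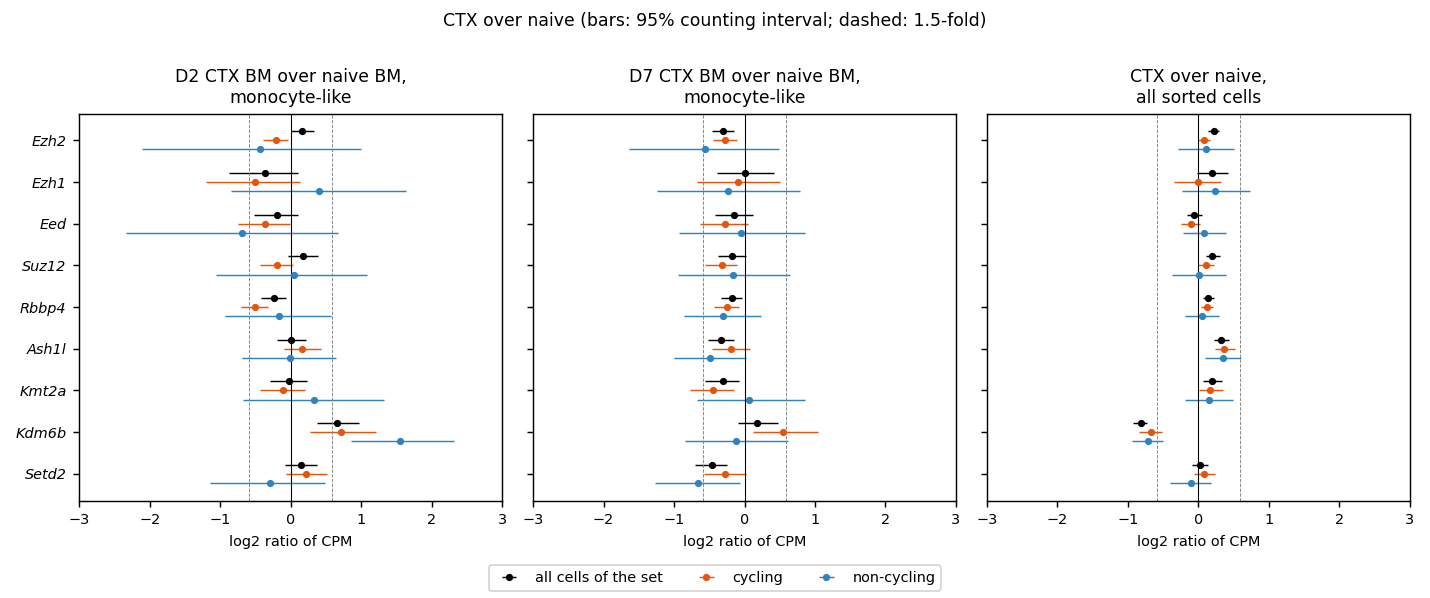
Log2 ratio of CTX over naive CPM for the 9 genes in monocyte-like cells at D2 (left) and D7 (middle) and in all sorted cells (right), for all cells (black), cycling cells (orange) and non-cycling cells (blue); bars are 95% counting intervals and dashed lines mark 1.5-fold. Kdm6b lies right of 1.5-fold at D2 and left of it in the sorted cells, and the points of the other genes for all cells lie between the dashed lines.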

How the data were processed

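Single-cell RNA of 5 libraries was analysed, 1 library per condition. The authors deposited UMI counts per gene and barcode without normalization; the submitters' processing notes name Cell Ranger 3.1, Seurat 5.0 and build mm10. Cells with at least 200 genes and under 20% mitochondrial UMIs were kept. Clusters came from Seurat 5.3.0 under R 4.3.3, in 1 run for whole BM and 1 for sorted cells (2000 variable genes, 30 components, reciprocal PCA integration, resolution 0.8). Clusters were called by fixed marker lists, left unnamed where their leading genes went against the name, and gave 26 clusters in whole BM and 13 in sorted cells. In sorted cells no monocyte list was scored. Clusters that fitted none of the NeuMo, DCMo and neutrophil granule lists were called monocyte-like there, unless depth was low or immunoglobulin genes led. The NeuMo-like class held only 3 naive and 29 CTX cells. In the monocyte-like contrast all 4 NeuMo markers were higher in cycling cells (median log2 3.87), so monocyte-like cells still held NeuMo marker RNA. The NeuMo clusters of the paper were not matched to these classes. The authors' annotation of cells was not used here. Doublets were kept, and left out by Scrublet in scanpy 1.11.5 as an alternative.

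The 9 genes and all lists were chosen with earlier results of these data known. Counts were summed per library, class and cycling state, and cells under 1000 UMIs (17 to 599 per library, 599 at D2 CTX) were left out of the cycling call. Sums of at least 20 cells per state were compared with edgeR 4.0.16 (quasi-likelihood test, library as a block, TMM, genes with at least 10 UMIs in at least as many sums as there were libraries, S and G2/M genes left out), and adjusted over all genes tested. In simulated counts, 91 of 100 genes changed by log2 1.5 and 62 of 100 changed by 0.6 were recovered in the monocyte-like contrast, 93 and 50 in the neutrophil contrast and 78 and 23 in the B lineage. The planned contrast in neutrophil precursor-like cells alone could not be fitted, since they held too few non-cycling cells.

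CTX was compared with naive by the difference of log2(CPM + 1), with exact Poisson and conditional 95% intervals, where both sums together held at least 50 UMIs, and called at 1.5-fold without a p-value. Intervals cover counting error only. Named other regulators were, by rule, up to 4 with the largest fold in each direction of a tested contrast and up to 3 past 1.5-fold in each direction after CTX; likeness used the 5 highest correlations for Ezh2 and 3 each for Ezh1 and Kdm6b, over sums of at least 50 cells and genes of at least 20 CPM on average. Alternatives covered DESeq2 1.42.0, filters, the cycling threshold, the clustering, doublets, scaling and single libraries left out. Python 3.11.15, numpy 2.4.6, scipy 1.17.1, pandas 2.3.3 and matplotlib 3.10.9 were used.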

Additional observations from a re-analysis of the deposited data

Results flagged for a closer look

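The Ezh2 difference between cycling and non-cycling cells was larger by log2 1.58 in the neutrophil contrast than in the B lineage, by the test of the difference itself (adjusted p = 0.00521, edgeR's quasi-likelihood test with Benjamini-Hochberg adjustment, n = 3 libraries). Non-cycling B lineage cells had 95.2 to 189 CPM of Ezh2, and non-cycling neutrophil cells 4.43 to 11.2 CPM. Both contrasts pooled classes of unlike Ezh2 level. Within small pre-B-like cells of naive BM, Ezh2 was 228 CPM in cycling and 222 CPM in non-cycling cells. Within immature neutrophil-like cells of naive BM it was 6.43 and 10.3 CPM, from few UMIs. The part of the pooled classes in the flagged difference was not tested.

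Kdm6b moved in opposite directions after CTX in the 2 sources of monocyte-like cells, and this difference was not tested. Its ratio over naive was log2 0.66 at D2 CTX in monocyte-like cells of whole BM and −0.81 in monocyte-like cells of the sorted libraries. The days were not the same, and at D7 the whole BM ratio was 0.18 (95% counting interval −0.09 to 0.48). At D7 in whole BM it was 0.55 (0.12 to 1.04) within cycling and −0.13 (−0.84 to 0.61) within non-cycling monocyte-like cells. In the sorted libraries it was −0.64 (−0.83 to −0.48) and −0.65 (−0.88 to −0.43). The naive levels also stood apart, at 35.8 CPM in whole BM and 80.6 CPM in sorted cells, and the part of the sort in them was not tested.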

How the results depend on the processing

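No result with a called value changed sign. The cycling differences of Ezh2 and Rbbp4 kept their direction and call in all 3 contrasts under each of the 15 or 16 alternatives run, as did Suz12 except in the B lineage without naive BM. With libraries left out in turn, genes higher in cycling cells numbered 1670 to 2644 in monocyte-like cells, 1800 to 3095 in the neutrophil contrast and 680 to 1528 in the B lineage, and genes lower 1581 to 2533, 1709 to 2915 and 248 to 1157, the lowest B lineage counts being those without naive BM. Calling cycling cells by the share of all UMIs, without thinning, gave 1130 and 564 genes in the neutrophil contrast and 886 and 469 in the B lineage, where DESeq2 gave 989 and 623 and a cycling threshold of 3 UMIs 610 lower. Ezh2 in naive monocyte-like cells was 160 CPM with cell cycle genes left out of the clustering, 149 with doublets removed, 153 without integration, 150.0 with totals lacking the 20 most abundant genes and 92.2 as a mean of single cells; in cycling cells it was 233, 224, 226, 223 and 167 CPM, and 220.0 and 155 with cycling thresholds of 8 and 3 UMIs. Those thresholds put 30.4% and 68.9% of the class in cycle, and the share of all UMIs 34.3%. At D2 in monocyte-like cells, Ezh2 was log2 −0.29 and Kdm6b 1.27 without integration, and Kdm6b 1.53 as a mean of single cells. In sorted cells Ezh2 was 0.32 as a mean of single cells and 0.10 weighted to the naive cycling share. Without a filter on low counts 2637 genes were higher and 1416 lower at D2 and 587 and 843 at D7, and a 2-fold limit left 618 and 221, 58 and 59, and in sorted cells 36 and 97. Scaling by the median ratio left 197 lower at D7, and adding 0.1 CPM gave 298 higher in sorted cells. Apart from construction (fewer cells, fewer libraries or another limit), the cause of these shifts was not tested. No paired analysis was possible because each condition was 1 library; the cycling contrasts had the library as a block. Neutrophils held few Ezh2 UMIs, 8 to 13 in a mature class, so their order was limited by depth.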
